A study of Mus musculus with 272 samples.

Results

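The transcriptomes of mouse germinal vesicle (GV) and metaphase II (MII) oocytes were compared gene by gene, to describe which maternal transcripts were degraded and which were retained in meiotic maturation. The 8 libraries used, 4 of GV oocytes and 4 of MII oocytes, were chosen by their labels from the 272 libraries of a series that follows RNA from the GV oocyte to the blastocyst. A GV oocyte is a fully grown oocyte arrested in prophase of meiosis I with its nucleus intact, and an MII oocyte is the mature egg arrested in metaphase of meiosis II. Each library came from a pool of 20 oocytes with no genetic alteration named, and the labels give no strain, age or hormone treatment. In the same series about 100 oocytes per gradient were lysed in cycloheximide and spun through sucrose, and 10 fractions of each gradient were sequenced (n = 3 gradients per stage). Nothing states that the pools came from separate animals, so the spread between pools, against which p-values are set, may be technical. For the tests of single genes that spread was estimated over the 32 pools of all 8 stages, and not from the GV and MII pools alone.

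An oocyte accumulates messenger RNA while it grows and then stops transcription before it resumes meiosis, so that between GV and MII a transcript can only be kept, modified or destroyed. Some stored messages carry short poly(A) tails and are translated only after a cytoplasmic polyadenylation element (CPE), a U-rich motif near the 3′ end bound by the protein CPEB1, directs the lengthening of the tail. Others are deadenylated by the CCR4-NOT complex, which the adaptor BTG4 brings to messages as they are translated, and are then degraded. The libraries were made by poly(A)-primed Smart-seq amplification, so a change in the amount of a transcript and a change in its poly(A) tail cannot be told apart in them.

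The 4 GV libraries held 12.8 to 14.8 M reads in named genes and the 4 MII libraries 17.6 to 22.4 M. Values are CPM, the reads of a gene per 1 M reads of its library, so a fall in total RNA per oocyte cannot be read from them. For cell types other than the oocyte, fewer cells and less RNA per cell cannot be told apart. CPM is not scaled to transcript length, so levels of different genes are not compared. All 10 oocyte markers were measured, and their summed level lay between 29349 and 31838 CPM in GV and between 28303 and 36060 CPM in MII libraries. Of 20 granulosa and cumulus cell markers 8 were measured, with a summed level of 42.5 to 50.5 CPM in GV and 65.5 to 75.8 CPM in MII libraries. Most of that sum was Cyp19a1, which had a mean of 38.0 and 62.7 CPM. Amhr2, the receptor of anti-Müllerian hormone, was at 0 in all 8 libraries. Blood and immune markers (4 of 10 measured) summed to 19.3 to 23.5 CPM and 4.81 to 8.02 CPM, and stromal markers (1 of 8 measured) to at most 0.528 CPM.

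On the CPM scale as deposited, more transcripts fell than rose between GV and MII. A gene was called when its change on the log2(CPM + 1) scale was at least 1, which is 2-fold, and limma's adjusted p was under 0.05. Of 14642 genes tested, 5045 were called (34.5%). The 3711 genes that fell made up 25.3% of those tested and the 1334 that rose 9.11%. A gene was counted as retained when the 95% interval of its change lay wholly between -1 and 1. That held for 6069 genes (41.4%), but 2683 of them had a mean under 1 CPM, where the added pseudocount holds the change near 0. Among the 6857 genes with a mean of at least 10 CPM, 2109 fell (30.8%), 1147 rose (16.7%) and 1923 were retained (28%).

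The split between falls and rises moved with the scaling. The median change over all genes tested was -0.11 as deposited, 0.00 after TMM scaling and 0.16 after quantile normalization, and among genes with at least 10 CPM it was 0.06, 0.37 and 0.43. Rises were 26.4% of the calls as deposited, 44.2% after TMM scaling, 49.8% after median of ratios scaling and 55.6% after quantile normalization. Of the 1334 rises, 1278 were called under all of these scalings, as were 2483 of the 3711 falls, and 0 genes were called in opposite directions. Each of these scalings raised MII values relative to GV and could remove few rises, so the survival of rises is no test of them. After removal of trends on transcript length and GC content, which covered 13095 genes, 967 of the rises and 2264 of the falls were still called. Retained genes with at least 10 CPM numbered 1923 as deposited, 1599 after TMM scaling, 1468 after median of ratios scaling and 1570 after quantile normalization. Shares of calls, the medians of classes and the retention of a gene are therefore relative to the library, and retained means as deposited throughout. The counts of every class below are to be read against the 25.3% of all tested genes that fell and the 9.11% that rose.

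**Figure D1:**
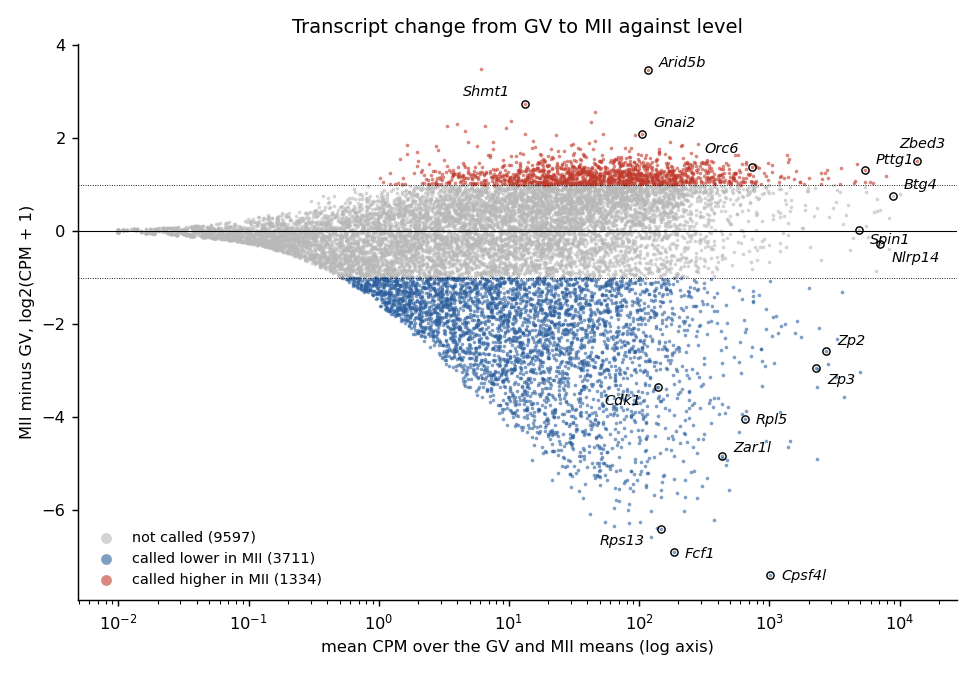
Change of each of the 14642 tested genes from GV to MII (vertical axis, log2 of CPM + 1) against its mean level (horizontal axis, CPM, log scale, means below 0.01 drawn at 0.01). Blue points are the 3711 genes called lower in MII, red points the 1334 called higher, and the dotted lines mark a change of 1 in either direction; falls reach -7.39 (Cpsf4l) while rises stay within 3.48.

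The size of the falls was far greater than that of the rises. Cpsf4l, a relative of a pre-mRNA polyadenylation factor, had 2015, 2156, 1942 and 1955 CPM in GV libraries A to D and 13.1, 12.4, 9.19 and 9.88 CPM in MII libraries A to D. Every GV pool was far above every MII pool, and the change was -7.39 (SE 0.24, limma adjusted p = 2e-24). Fcf1, a factor of small ribosomal subunit assembly, had 410.5, 331, 391 and 339 CPM in GV and 1.84, 2.56, 2.35 and 1.64 CPM in MII pools. Its groups did not overlap either, and the change was -6.90 (SE 0.20, limma adjusted p = 1.1e-25). The 10 largest falls among genes with at least 10 CPM in GV also held Ppil3 (-6.58), a prolyl isomerase, Upp1 (-6.39), a uridine phosphorylase, Yif1a (-6.25), a membrane trafficking protein, and Smim20 (-6.25), a small mitochondrial protein. The remaining 4 were components of the ribosome, the proteasome and mitochondria.

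Ribosomal protein transcripts were among the most strongly depleted. Of 91 cytosolic ribosomal protein genes, 76 fell, 0 rose and 10 were retained, with a median change of -3.01. Counting genes whose reads in MII were at the floor of 3 per library at their bound gives a median of -3.10. Together they made up 9420, 8157, 8775 and 7916 CPM in GV pools and 1626, 1572, 1310 and 1363 CPM in MII pools. The summed level was thus 5.84-fold lower in MII, with no overlap between groups. After removal of trends on transcript length and GC content 56 genes of the class fell and 7 rose, with a median of -1.77. Rps13, of the small subunit, had 324, 274, 301 and 268 CPM in GV and 3.64, 2.73, 2.35 and 1.43 CPM in MII pools (change -6.41, SE 0.14, limma adjusted p = 1.1e-28). Rps27a, which encodes ubiquitin fused to a ribosomal protein, had 147, 125, 125 and 115 CPM in GV and less than 1 CPM in each MII pool (change -6.35). Rpl5, of the large subunit, had 1290, 1158, 1254 and 1168 CPM in GV and 77.7, 98.6, 52.3 and 70.8 CPM in MII pools (change -4.04, SE 0.14). Ribosomal protein genes have many processed pseudogenes, and how reads shared with these were counted is not given in the sources used here.

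Nuclear genes of mitochondrial function followed the same direction. Of 77 mitochondrial ribosomal protein genes 57 fell, 0 rose and 12 were retained (median change -2.60), and their summed level was 7440 CPM in GV and 1922 CPM in MII. Mrpl55, of the large mitochondrial subunit, had 126 to 148 CPM in GV and 1.31 to 2.90 CPM in MII pools (change -5.54). Of 83 nuclear subunits of oxidative phosphorylation 66 fell, 2 rose and 8 were retained, with a median of -2.98. Atp5j2, of ATP synthase, had 278, 229, 253 and 221 CPM in GV and 3.59, 3.46, 2.39 and 2.01 CPM in MII pools (change -6.01, SE 0.19, limma adjusted p = 6.8e-25). Ndufa10, of complex I, was 1 of the 2 that rose, with 132, 145, 124 and 131 CPM in GV and 395, 291, 366 and 316 CPM in MII pools (change 1.35, SE 0.17, limma adjusted p = 2.5e-08). Atp5b, the catalytic beta subunit of ATP synthase, had means of 350.3 and 572 CPM and was retained as deposited (0.71), but was called higher after TMM and median of ratios scaling. Chchd2, a protein of the mitochondrial intermembrane space, had 705 to 772 CPM in GV and 5.44 to 13.9 CPM in MII pools (change -6.20). With trends on transcript length and GC content removed, 47 mitochondrial ribosomal protein genes fell and 5 rose (median -1.52). For oxidative phosphorylation subunits 50 then fell and 8 rose (median -1.70).

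Other housekeeping machinery fell less uniformly. Of 46 proteasome genes 26 fell, 2 rose and 14 were retained (median -1.39). Psmb7, a catalytic subunit, had 182, 150.1, 172 and 165 CPM in GV and 1.05, 1.39, 0.75 and 1.58 CPM in MII pools (change -6.27, SE 0.17), while Psma2, of the same core particle, had means of 1015 and 1616 CPM (0.67, retained as deposited and called higher after median of ratios scaling). Of 45 translation initiation factors 21 fell and 7 rose. Eif3g went from a mean of 298 to 7.09 CPM (-5.27), whereas Eif2b1, of the exchange factor that recharges eIF2, had 763, 709, 753 and 721 CPM in GV and 1981, 1889, 2359 and 2031 CPM in MII pools (1.48, SE 0.13, limma adjusted p = 3e-12). Elongation and termination factors (7 of 17 fell, 0 rose), aminoacyl-tRNA synthetases (15 of 37 fell, 1 rose), cytosolic chaperones (10 of 20 fell, 0 rose) and enzymes of glycolysis and the citric acid cycle (15 of 34 fell, 2 rose) had medians from -0.90 to -0.53. Eef1d, an elongation factor subunit, changed by -5.45 and Cct3, of the chaperonin that folds actin and tubulin, by -2.95. Hsp90aa1, the inducible cytosolic chaperone, was retained, with means of 2546 and 3597 CPM (0.49).

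**Figure D2:**
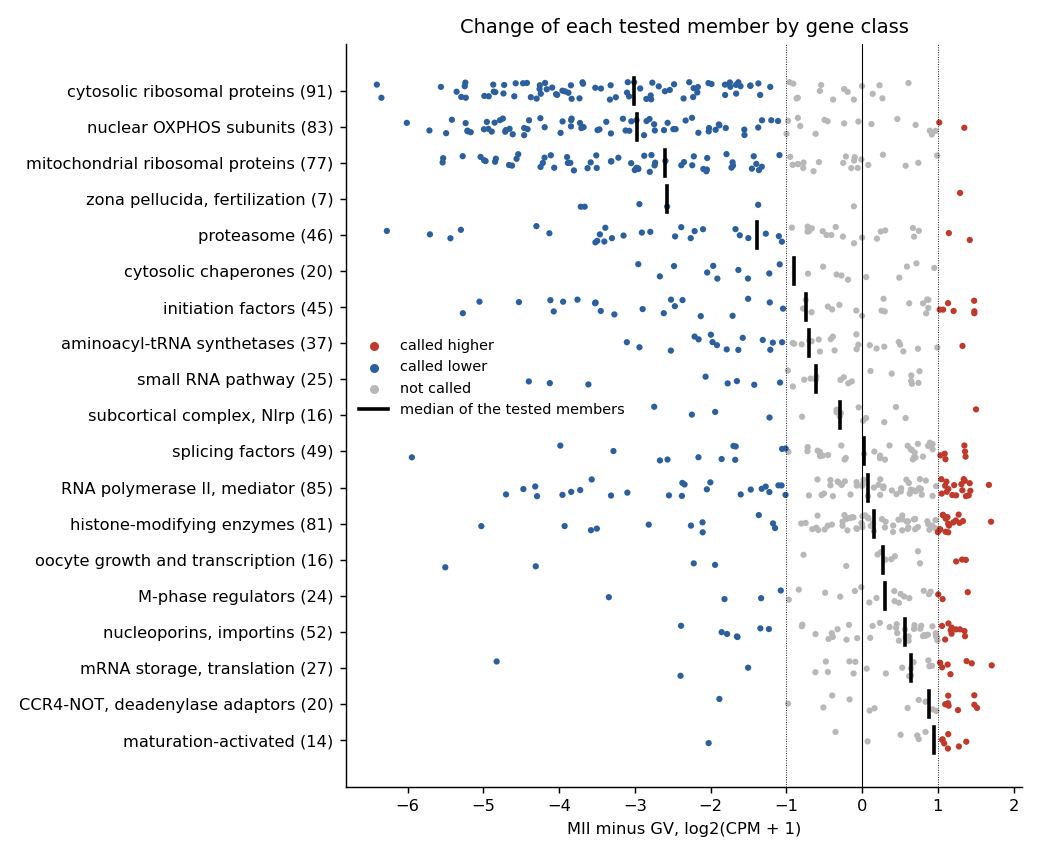
Change from GV to MII (horizontal axis, log2 of CPM + 1) of each tested member of the gene classes named on the vertical axis, with the number of members in parentheses; red points were called higher, blue points lower and grey points neither, and black bars are class medians. Ribosomal protein, mitochondrial ribosomal protein and oxidative phosphorylation genes lie mostly to the left of -1, with medians from -3.01 to -2.60, while the deadenylase class has a median of 0.88.

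Zona pellucida and sperm-egg fusion transcripts, products of the growing oocyte, were mostly reduced: 5 of 7 fell and 1 rose, and their summed level went from 11083 to 2530 CPM. Zp2, a zona protein that sperm bind, had 4123, 4699, 4643 and 4833 CPM in GV and 1051, 1572, 327 and 638 CPM in MII pools. The MII pools spread more than the GV pools but stayed well below them (change -2.57, SE 0.33, limma adjusted p = 2.8e-08). Zp3 had 3659, 4362, 3919 and 4197 CPM in GV and 713, 658, 402 and 399 CPM in MII pools (-2.94, SE 0.22, limma adjusted p = 3.1e-14). Zp1, which crosslinks zona filaments, had means of 1193 and 486 CPM (-1.37), a call lost after median of ratios scaling and with DESeq2. Izumo1r, the egg receptor Juno, had 735 to 866 CPM in GV and 40.6 to 79.6 CPM in MII pools (-3.71), and Cd9, a tetraspanin needed for fusion, changed by -3.66. Astl, the protease ovastacin that cleaves ZP2 after fertilization, went the other way, with 172, 231, 203 and 234 CPM in GV and 642, 479, 533 and 419.8 CPM in MII pools (1.29, SE 0.30, limma adjusted p = 0.00037).

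Genes of oocyte growth included falls, rises and retention, with no split between transcription factors and secreted factors. Of 16 genes 4 fell (25%), 3 rose (18.8%) and 6 were retained, and the falling share was that of all genes tested. Nobox, a homeodomain factor of the oocyte programme, had 478, 679, 516 and 585 CPM in GV and 182, 151, 117 and 137 CPM in MII pools (-1.94, SE 0.25, limma adjusted p = 1.8e-08). Figla, which activates zona genes, fell by 4.31 and Lhx8, a LIM homeodomain factor, by 2.22 on the log2 scale. The factors Sohlh2 (1.37), of the basic helix-loop-helix family, and Nr6a1 (1.24), a nuclear receptor, rose, and the forkhead factor Foxo3 was retained (0.20). Fgf8, a growth factor sent to cumulus cells, went from a mean of 219.9 to 3.98 CPM (-5.50). The secreted factors Gdf9 and Bmp15, which also act on cumulus cells, were retained as deposited. Gdf9 had 5191, 6181, 5557 and 5735 CPM in GV and 9445, 6559, 8023 and 6827 CPM in MII pools, with a change of 0.43 (95% interval -0.06 to 0.93), and Bmp15 had means of 2543 and 3151 CPM (0.31).

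The subcortical maternal complex, a protein lattice needed for cleavage, was also split. Of 16 measured genes of the complex and the related Nlrp family, 4 fell (25%), 1 rose (6.25%) and 8 were retained. Padi6 went from a mean of 2579 to 686 CPM (-1.94), Tle6 from 1735 to 368 CPM (-2.25) and Khdc3 from 130.4 to 19.4 CPM (-2.74). Ooep had means of 2815 and 1229.5 CPM (-1.22), a call lost after TMM and median of ratios scaling and with edgeR and DESeq2. Nlrp5 was retained, with means of 1092 and 897 CPM (-0.29). Zbed3 rose, with 6547, 7396, 6816 and 7601 CPM in GV and 24534, 15812, 22310.0 and 18797 CPM in MII pools (1.5, SE 0.29, limma adjusted p = 4e-05). Because of Zbed3 the summed level of the class was higher in MII (31841 and 38683 CPM) although the median change was -0.29, and that median was 0.04 after TMM scaling.

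The M-phase engine showed falls, rises and retention side by side. Cdk1, the catalytic subunit of maturation promoting factor, had 252, 252, 264 and 255 CPM in GV and 35.8, 28.8, 15.1 and 22.2 CPM in MII pools (-3.34, SE 0.22, limma adjusted p = 2.2e-15). Its partner Ccnb1, cyclin B1, had 3461, 3856, 3727 and 4151 CPM in GV and 6400.3, 7954, 9324 and 8289 CPM in MII pools (1.06, SE 0.17, limma adjusted p = 1.5e-06). The groups did not overlap, but the call was lost after quantile normalization and without MII library C. In the Mos pathway, which holds the egg in metaphase, Map2k1 rose (1.39) and Mos had 1215, 1234, 1195 and 1209 CPM in GV and 2126, 1694, 1616 and 1527 CPM in MII pools without passing the test (0.51, SE 0.30, limma adjusted p = 0.16). Cdc25c, a phosphatase that activates CDK1, fell (-1.82). Wee2, the oocyte kinase that inhibits CDK1, and Fbxo5, an inhibitor of the anaphase-promoting complex, were retained, at 0.43 and 0.19. Of 24 genes in this class 4 fell (16.7%, against 25.3% of all tested genes), 3 rose (12.5%, against 9.11%) and 9 were retained. Among all genes with at least 10 CPM 30.8% fell and 16.7% rose. After TMM scaling 6 rose and 3 fell.

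Among 31 genes of the spindle checkpoint and the anaphase-promoting complex 7 rose (22.6%), 6 fell (19.4%) and 12 were retained. Pttg1, the separase inhibitor securin, had 3168, 2924, 3362 and 2939 CPM in GV and 7075, 6984, 8911 and 8154 CPM in MII pools (1.32, SE 0.13, limma adjusted p = 1.2e-10). Fzr1, the activator CDH1 that restrains cyclin B1 in prophase, went from a mean of 64.1 to 8.73 CPM (-2.82). The median of the class was -0.22 as deposited and 0.10 after TMM scaling, and its summed level went from 7660 to 14156 CPM. Of 27 spindle assembly genes 10 fell (37.0%) and 4 rose (14.8%) as deposited, and after TMM scaling 8 fell and 8 rose. Haus4, of the augmin complex that nucleates microtubules, rose by 1.45, and Kif22, a chromosome-arm kinesin, changed by -2.03 while Kif5b, a transport kinesin, rose by 1.89.

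Transcripts of the deadenylation machinery, which shortens poly(A) tails, were more often higher than lower in MII pools. Of 20 genes of CCR4-NOT, the PAN2-PAN3 deadenylase and their adaptors, 8 rose (40%, against 9.11% of all genes tested), 1 fell and 5 were retained (median 0.88). Among all genes with at least 10 CPM 16.7% rose, and among those with 100 to 1000 CPM 24.1%. Cnot7, a catalytic deadenylase, had 777, 793, 747 and 851 CPM in GV and 1237, 1817, 2124 and 1927 CPM in MII pools (1.14, SE 0.15, limma adjusted p = 4.7e-08), a call lost after quantile normalization. Pan3 had 44.4, 34.2, 41.4 and 40.8 CPM in GV and 108, 116, 99.9 and 132 CPM in MII pools (1.48, SE 0.15, limma adjusted p = 2.5e-10), and Pan2 changed by 1.48 too. The catalytic subunits Cnot6 (1.14) and Cnot6l (1.13) also rose, but their calls were lost when a trend on transcript length and GC content was removed, and the catalytic subunit Cnot8 was retained (0.16). Btg4, the maturation-specific adaptor, had 6627, 6376, 6953 and 6593 CPM in GV and 10018, 11788, 11601 and 11245 CPM in MII pools. Its groups were well apart, but the change of 0.75 (SE 0.21, limma adjusted p = 0.0025) stayed under the 2-fold required as deposited and passed it after TMM and median of ratios scaling. Cnot1, the scaffold, was retained with 78.1 to 98.9 CPM in GV and 46.4 to 78.5 CPM in MII pools (-0.39), and Cnot10 fell (-1.88). Further down the decay pathway the decapping factor Dcp1a (1.28) and the helicase Upf1 (1.37) rose while Exosc5, of the exosome, fell by 4.44 on the log2 scale.

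Storage and translation regulators also diverged within families. Zar1l had 879, 828, 878 and 768 CPM in GV and 31.5, 40.6, 18 and 28.7 CPM in MII pools (-4.82, SE 0.25, limma adjusted p = 1.9e-18). Its paralogue Zar1, an RNA-binding protein of the maternal mRNA store, was retained, with 756, 801, 738 and 757 CPM in GV and 1171, 546, 627 and 529 CPM in MII pools (-0.17). Ybx2, the germ cell Y-box protein that coats stored mRNA, fell (-2.40), while Ybx1, its somatic relative, had 125, 115, 133 and 132 CPM in GV and 379, 271, 407 and 342 CPM in MII pools (1.45, SE 0.16, limma adjusted p = 5.8e-10). Cpeb1 had means of 333 and 217 CPM without passing the 2-fold change (-0.62), and Cpeb4, of the same family, went from 10.6 to 37.4 CPM (1.71). Eif4e, the cap-binding protein, fell (-1.5) and Lsm14a, a P-body component, rose (1.38). Of the 27 tested genes of this class 7 rose (25.9%), 3 fell (11.1%) and 9 were retained (median 0.65).

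A class of 14 transcripts listed for translation activated in maturation was described beside these. The class is not separate from the others, as its members Cnot7, Cnot6l, Dcp1a, Dazl, Ccnb1 and Tpx2, which rose, are also counted in other classes. Of them 7 rose (50%, against 9.11% of all genes tested), 1 fell and 2 were retained (median 0.95). The count of rises depended on the scaling, with 10 after TMM scaling and 3 after quantile normalization. Orc6, of the origin recognition complex, had 438, 386, 426 and 377 CPM in GV and 948, 1031, 1159.6 and 1092 CPM in MII pools (1.38, SE 0.12, limma adjusted p = 6.7e-12). Dazl (1.06), an RNA-binding activator of translation, and Tpx2 (1.08), a spindle assembly factor, rose as deposited but not after quantile normalization. Plat, tissue plasminogen activator, had 1556, 1874, 1499.7 and 2015 CPM in GV and 2078, 1964, 1793 and 1476 CPM in MII pools. Its groups overlapped and it was retained (0.07, 95% interval -0.48 to 0.62). Pabpc1l, the oocyte poly(A)-binding protein, was the member that fell (-2.03).

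The largest rises were from low GV levels. Arid5b, a chromatin-associated DNA-binding protein, had 17.8 to 19.6 CPM in GV and 200.3 to 245 CPM in MII pools, and its level in zygotes was 4.0 CPM. D430041D05Rik, with no role assigned here, had 0, 0.291, 0.227 and 0.15 CPM in GV and 12.9, 14.4, 9.29 and 11.7 CPM in MII pools (3.48, SE 0.31, limma adjusted p = 6.6e-12). Shmt1, a cytosolic enzyme of folate metabolism, had 0.986, 4.51, 2.5 and 3.59 CPM in GV and 25.7, 25.2, 25.8 and 17.6 CPM in MII pools (2.74, SE 0.29). Gnai2, a G protein subunit, had 42.4, 47.4, 37.9 and 29.9 CPM in GV and 230.1, 152, 177 and 131 CPM in MII pools (2.09, SE 0.23, limma adjusted p = 8.7e-10). In each of these the 4 MII pools lay above the 4 GV pools. The 10 largest also held the potassium channel subunit Kcng2 (2.35), Tcerg1l (2.22), the cytokine Tnfsf10 (2.08) and the predicted genes Gm8126 (2.56), Gm7072 (2.36) and Gm9451 (2.25), whose reads may be shared with related loci.

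Of 122 genes with a mean of at least 1000 CPM 39 were retained, 33 rose and 28 fell. The 10 retained genes with the highest CPM in GV, a value that also grows with transcript length, were Ldhb, Nlrp14, Obox5, Obox2, Fbxw14, Gdf9, Obox1, Fbxw28, Spin1 and Fbxw19. Spin1, a histone methylation reader abundant in oocytes, had 5006, 4754, 4753 and 4713 CPM in GV and 4502, 5193, 5076 and 4805 CPM in MII pools. The groups overlapped and the change was 0.02 (95% interval -0.27 to 0.32). Nlrp14, a maternal protein needed for early cleavage, had 7460, 7913, 7275 and 8478 CPM in GV and 5288, 7421, 5987 and 7147 CPM in MII pools (-0.28, 95% interval -0.73 to 0.17). Dppa3, which protects maternal DNA methylation in the zygote, was also retained, with 3126 to 3755 CPM in GV and 3529 to 4436 CPM in MII pools (0.16). The Obox homeobox genes, with changes from 0.28 to 0.46, and the Fbxw F-box genes, from -0.40 to 0.11, are tandem families whose reads can be split between copies. Ldhb (-0.39), lactate dehydrogenase B, was retained as deposited and called lower after quantile normalization.

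**Figure D3:**
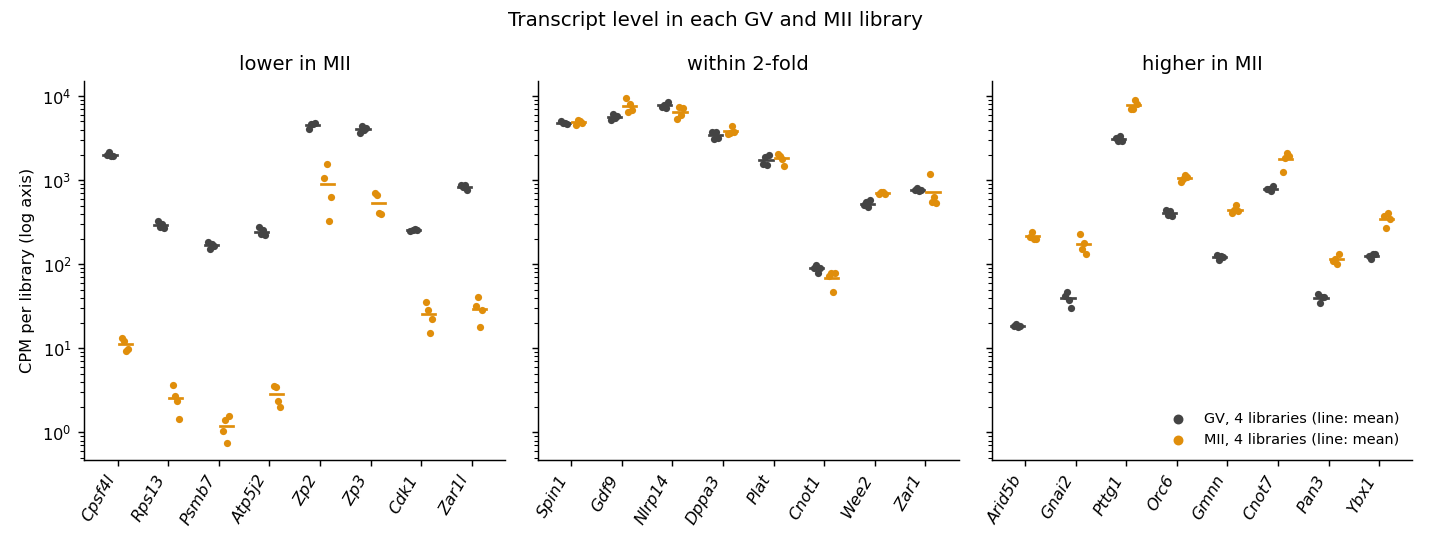
CPM of 24 genes (log axis) in each of the 4 GV libraries (grey) and 4 MII libraries (orange), with a line at each mean. The left panel holds genes called lower in MII, the middle panel genes retained within 2-fold and the right panel genes called higher; in the left and right panels no MII point overlaps the GV points of the same gene.

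Histone classes held more falls than rises as deposited, and other chromatin and replication genes changed both ways. Of 13 histone variant and linker histone genes 5 fell (38.5%), 1 rose and 4 were retained, and the median change of -0.66 was accompanied by a summed level that went from 12755 to 22116 CPM. H1f8, the oocyte linker histone, accounted for most of the sum, with means of 7335 and 12839 CPM (0.80, called higher after TMM and median of ratios scaling but not as deposited). Slbp, which binds the stem-loop of histone mRNA and is counted in the class, rose (1.36, lost after quantile normalization), and H2az2 fell by 4.11 on the log2 scale. Of 42 replication-dependent histone genes, whose mRNAs mostly lack poly(A) tails, 9 fell (21.4%, against 25.3% of all genes tested), 0 rose and 23 were retained. However, 15 of the 42 were at the floor of 3 reads in MII and 14 in GV, where the pseudocount holds the change near 0. The class median was -0.21. It was -0.66 with genes at the floor at 1 stage counted at their bound and those at the floor at both left out. The summed level of these histone genes was low and went from a mean of 149.7 to 55.5 CPM without overlap, with H2bc4 at -2.18. After quantile normalization 2 of these genes fell and 2 rose. Among replication genes 6 of 43 rose and 12 fell (27.9%), with Gmnn, an inhibitor of licensing, at 128, 111, 124 and 121 CPM in GV and 408, 440.3, 505 and 431 CPM in MII pools (1.87, SE 0.14, limma adjusted p = 6.7e-14). Rpa2, of the single-strand DNA-binding complex, went from 169 to 3.85 CPM (-5.15). Tet3, which oxidizes methylcytosine in the zygote, and Kdm6a, a histone demethylase, rose by 1.42 and 1.70, and Setd4, a SET domain methyltransferase, changed by -5.03. In small RNA pathways 8 of 25 fell (32%) and 0 rose, including Tarbp2 (-4.40), a partner of Dicer, while Dicer1 had means of 453 and 775 CPM (0.76).

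The remaining classes are given by their counts, beside 9.11% rising and 25.3% falling over all genes tested. At 10 CPM or more these shares were 16.7% and 30.8%. Of 257 solute carriers 23 rose (8.95%), 59 fell (23.0%) and 117 were retained, and of 329 Zfp zinc finger genes 29 rose (8.81%), 57 fell (17.3%) and 146 were retained. Splicing factors (6 of 49 rose, 12 fell), RNA polymerase II and mediator genes (18 of 85 rose, 24 fell) and histone-modifying enzymes (17 of 81 rose, 11 fell) had medians between 0.03 and 0.16. Nucleoporins and importins had 10 of 52 rising (19.2%) and 7 falling (13.5%), with a median of 0.57. Of 20 cohesin genes 5 rose (25%) and 1 fell (5%), and of 13 genes that control prophase arrest 3 rose (23.1%) and 1 fell (7.69%). After removal of trends on transcript length and GC content, 0 of the 19 cohesin genes matched to a transcript rose and 1 fell. Ubiquitin E2 enzymes (3 of 31 rose, 11 fell), lysosome and autophagy genes (3 of 59 rose, 19 fell), Rab GTPases (3 of 51 rose, 15 fell) and cortical actin genes (2 of 27 rose, 8 fell) had falling shares from 29.4% to 35.5%. After TMM scaling cortical actin genes had 8 rises and 6 falls and Zfp genes 52 and 43. Decapping, exosome and uridylation genes (8 of 45 rose, 8 fell), polyadenylation genes (3 of 24 rose, 5 fell) and maternal-effect regulators (2 of 18 rose, 5 fell) changed both ways. Markers of genome activation, which the embryo switches on later, summed to 51.1 CPM in GV and 5.95 CPM in MII, and Zscan4d fell (-2.97).

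Transcripts that fell were short and rarely held a CPE. Genes were matched to a coding transcript of the GENCODE M21 annotation of GRCm38 for 96.0% of those with at least 10 CPM, and the following shares refer to these. One transcript was taken per gene. The median transcript length was 2904 bases over all of them, 1866 bases for genes that fell, 3624 for genes that rose and 3292 for those retained. The median 3′ UTR was 500 bases for genes that fell, 1303.5 for genes that rose and 1100 for those retained. In 5 bins of equal gene number by transcript length, 59.8% of the shortest bin fell and 8.35% rose, and of the longest bin 9.57% fell and 26.1% rose. The shortest bin held 181 genes of the ribosomal protein, mitochondrial ribosomal protein, oxidative phosphorylation and proteasome classes (median change -3.31). The other 1136 genes of that bin had a median of -1.33, and 55.7% of them fell, so short length went with falls outside those classes too. Across 6585 genes the change correlated with transcript length (Spearman's rho 0.40), 3′ UTR length (0.28) and GC content (-0.30), as a description over genes that share the same 8 libraries.

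The motifs TTTTAT and TTTTAAT, DNA spellings of common CPE forms, were searched on the transcript strand in the last 100 bases of 3′ UTRs at least 100 bases long. Over all genes with at least 10 CPM 22.2% held a match, against 11.2% of those that fell, 21.2% of those retained and 37.2% of those that rose. Genes with a match rose in 29.3% and fell in 14.5% of cases (1386 genes), and genes without rose in 14.1% and fell in 32.7% (4862 genes). The difference was largest where UTRs were short: for UTRs of 100 to 423 bases, the shortest of 4 bins, the median change was 0.50 with a match and -1.14 without, and in the bin of the longest UTRs 0.57 and 0.38. The following ends were chosen to show both kinds, from GENCODE M21, 5′ to 3′ on the transcript strand. Capitals mark a CPE match or the polyadenylation signal AATAAA. The CPE windows are from genes that rose or were retained (and Btg4) and begin between 43 and 93 bases from the transcript end, and the others are the last 30 bases of genes that fell.
Btg4: ccctTTTTATgtctttttaaaagtttgatt
Orc6: taaaTTTTATttcactaaatgttatatagc
Gmnn: tccgTTTTATgtaaatagcattttcatttt
Plat: tataTTTTAATctattttagtttttacttt
Spin1: taatTTTTATaattatgatgtaactcttat
Gdf9: gtggTTTTATgtgacggaagAATAAActgt
Rps13: caagcAATAAAatcactttgagtaacttgg
Rps27a: gtatgcgttAATAAAaagaaggaactcgta
Chchd2: taaaaaaAATAAAttggttattctgaagtg
Psmb7: aAATAAAtaAATAAAaagacaaaaaactta
The 3′ UTRs of Rps13 and Rps27a are only 45 and 34 bases long in this annotation, so neither entered the motif count, and those of Chchd2 (230 bases) and Psmb7 (141 bases) held no match. A match is a description of these letters, and not every riser had one: Ccnb1 and Arid5b had none in this window. Mos, which was not called, had none either. Rpl5, which fell, had a match.

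**Figure D4:**
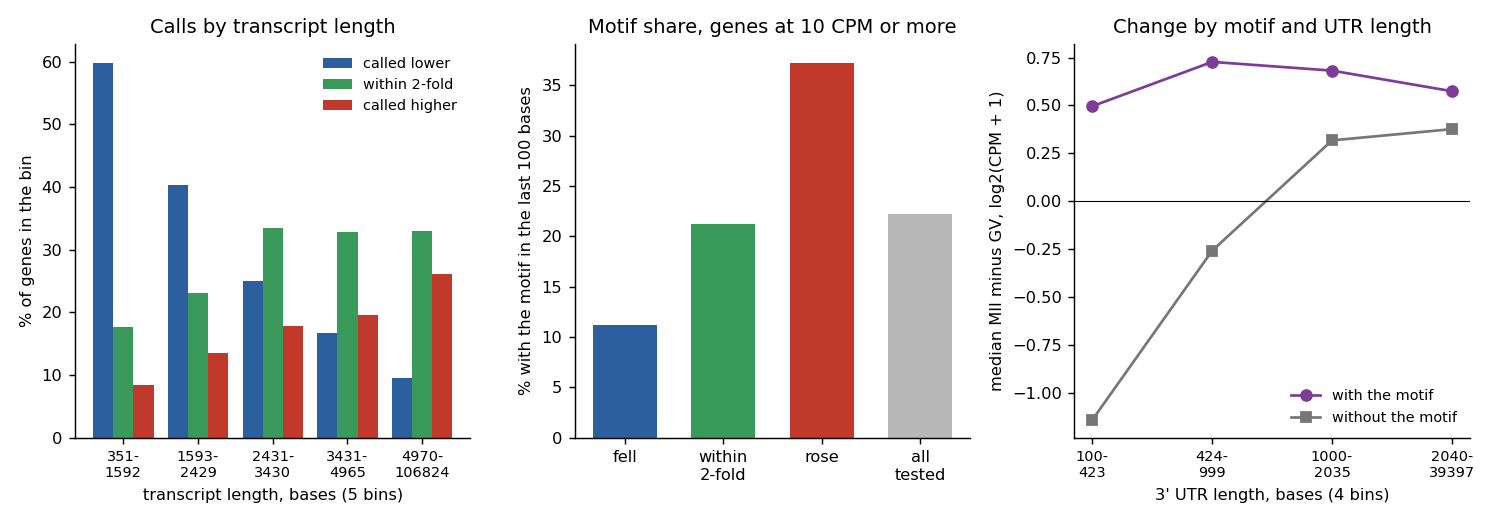
Transcript features of genes with at least 10 CPM. Left, percent of genes called lower (blue), retained within 2-fold (green) and called higher (red) in 5 bins of transcript length (bases); middle, percent with a CPE match in the last 100 bases of the 3′ UTR by class of change; right, median change (log2 of CPM + 1) in 4 bins of 3′ UTR length with (circles) and without (squares) a match. The share called lower drops from 59.8% to 9.57% along the length axis, and the motif share is 11.2% in genes that fell and 37.2% in genes that rose.

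The sucrose gradients give another reading of the same genes, from other oocytes. The mean CPM over the 10 fractions of each gradient was compared between stages (n = 3 gradients each), with no test, since CPM is set separately in every fraction and a shallow or RNA-poor fraction counts as much as the others. Genes with at least 10 CPM that fell in pools had a median gradient change of -0.91, against -2.45 in pools, and those that rose 0.34 against 1.19. Over all such genes the median was -0.08, and the pool and gradient changes correlated across 6857 genes with a Spearman's rho of 0.49. The gradient change was below 0 for 79.7% of the genes that fell, against 53.8% of all such genes, and above 0 for 67.9% of those that rose, against 46.2%. Gradient RNA came from cleared lysate by Trizol extraction, and how RNA was taken from the pools is not given in the sources used here. Differences between the readouts from extraction, scaling and oocyte batch cannot be told apart.

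Several of the largest falls were present in both readouts. Cpsf4l had 7093, 5940 and 5821 CPM in GV gradients and 330, 366 and 1247 CPM in MII gradients, a change of -3.55 (SE 0.62). Fcf1 changed by -4.66, Fgf8 by -4.73, Upp1 by -4.82, H2az2 by -3.25 and Rps27a by -3.36 in gradients. All GV gradients lay above all MII gradients for these 6 genes. Rps13 had 289, 337 and 322 CPM in GV gradients and 54.3, 55.4 and 124 CPM in MII gradients (-2.11), a smaller drop than in pools.

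Other falls were smaller, absent or reversed in the gradients. Rpl5 had 64.5, 110.0 and 77.5 CPM in GV and 120.2, 99.7 and 83.6 CPM in MII gradients (0.28, SE 0.27), with overlapping groups, beside -4.04 in pools. Cdk1 had 108, 91.0 and 89.9 CPM in GV and 484, 513 and 411 CPM in MII gradients, so it was higher in MII there (2.27, SE 0.13) and lower in MII pools (-3.34). Ooep differed in the same way (3.22 in gradients and -1.22 in pools), and so did Padi6 (1.30 and -1.94). Zp2 (0.65) and Zp3 (-0.20) overlapped between GV and MII gradients. The zona class as a whole had a median of -0.20 in gradients and -2.57 in pools. For ribosomal proteins the gradient median was -0.55 (-1.06 without fraction 1, which was shallow in GV) beside -3.01 in pools, and for oxidative phosphorylation subunits -0.25 (-0.70 without fraction 1) beside -2.98. All MII gradients lay below all GV gradients for 48.4% of ribosomal protein genes and 37.3% of oxidative phosphorylation genes, against 27.5% of all genes with at least 10 CPM.

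Rises in pools were likewise only partly present. Of the 10 largest, Gnai2 alone was higher in every MII gradient than in any GV gradient, and the gradient groups of the other 9 overlapped. Among these D430041D05Rik changed by -0.17 and Kcng2, with 246, 54.8 and 161 CPM in GV and 29.7, 2.74 and 62.6 CPM in MII gradients, by -2.75. Arid5b (1.49, SE 1.26), Shmt1 (0.54), Tnfsf10 (0.76), Tcerg1l (0.45) and the 3 predicted genes (0.33 to 0.77) had changes above 0. Gnai2 (3.22) was joined by Ndufa10 (3.08), Pttg1 (2.40), Cnot9 (1.97) and Zbed3 (1.00), whose gradient groups did not overlap either. The maturation-activated class, with a median of 0.95 in pools, had -0.57 in gradients, and the deadenylase class, with 0.88 in pools, had -0.06 (0.06 without fraction 1). Btg4 had 1913, 1912 and 2435 CPM in GV and 1296, 1312 and 1136 CPM in MII gradients (-0.73, SE 0.13), the reverse of its direction in pools. Plat, retained in pools, changed by -1.71 in gradients. Retention was also only partly present. Of 1923 retained genes with at least 10 CPM, 379 were higher and 289 lower in gradients without overlap (median 0.03). Of all 6857 genes at that level, 1291 were higher and 1886 lower. The abundant retained genes Ldhb (2.22), Fbxw14 (1.27), Fbxw19 (0.82), Fbxw28 (0.73), Obox5 (-0.79) and Obox1 (-1.11) had gradient groups without overlap. The gradient groups of Nlrp14, Obox2, Gdf9 and Spin1 overlapped.

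The place of a transcript within the gradient was compared as the difference between fractions 6 to 10, taken as the heavy side where ribosome-bound messages lie, and fractions 1 to 5. This difference is on the log2 scale and is given as the mean over 3 gradients with its SD. Fraction 1 of the GV gradients was shallow, with 0.0102 and 0.0231 M reads in 2 of 3 gradients, so values without it are given where it moved them most. Among genes with at least 10 CPM, those that rose in pools had a median of 0.62 ± 0.11 in GV and 1.31 ± 0.24 in MII gradients, and those that fell -0.07 ± 0.05 and -0.54 ± 0.16. Genes retained had 0.48 ± 0.14 and 0.28 ± 0.12, close to all genes tested (0.31 ± 0.08 and 0.19 ± 0.12). Over genes of any level the medians were 0.56 and 1.19 for those that rose and -0.06 and -0.51 for those that fell.

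Some retained and risen transcripts shifted their place. The retained genes Obox5, Obox1, Hsp90aa1, Spin1 and Plat moved to the heavy side, whereas the retained class had a median of 0.48 in GV and 0.28 in MII. Obox5 went from 0.82 ± 0.12 in GV to 4.40 ± 0.82 in MII, Obox1 from 0.79 ± 0.15 to 4.10 ± 0.40, and Hsp90aa1 from 0.78 ± 0.53 (1.30 without fraction 1) to 3.31 ± 0.03, with pool levels within 2-fold. Spin1 went from 0.08 ± 0.29 (0.44 without fraction 1) to 2.25 ± 0.38 and Plat from -0.38 ± 0.29 to 2.32 ± 0.60. The maturation-activated class went from 0.24 ± 0.11 to 1.5 ± 0.35, with Orc6 at 0.14 ± 0.42 and 2.31 ± 0.26 and Ccnb1 at 0.15 ± 0.17 and 1.76 ± 0.64. Zbed3 (-0.72 ± 0.05 and -0.93 ± 0.06) and Gnai2 (-0.90 ± 0.22 and -1.69 ± 0.22) rose in pools and yet lay on the light side at both stages. Nlrp14 was already heavy in GV (1.99 ± 0.35, or 2.93 without fraction 1) and stayed so (2.45 ± 0.46). Zp2 went from 1.08 ± 0.17 to 0.39 ± 0.34 and Zp3 from 1.37 ± 0.67 to 0.28 ± 0.21. Ribosomal protein genes had -0.29 ± 0.21 in GV and -0.86 ± 0.21 in MII, but -0.15 at both stages without fraction 1, so their shift rested on that fraction.

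**Figure D5:**
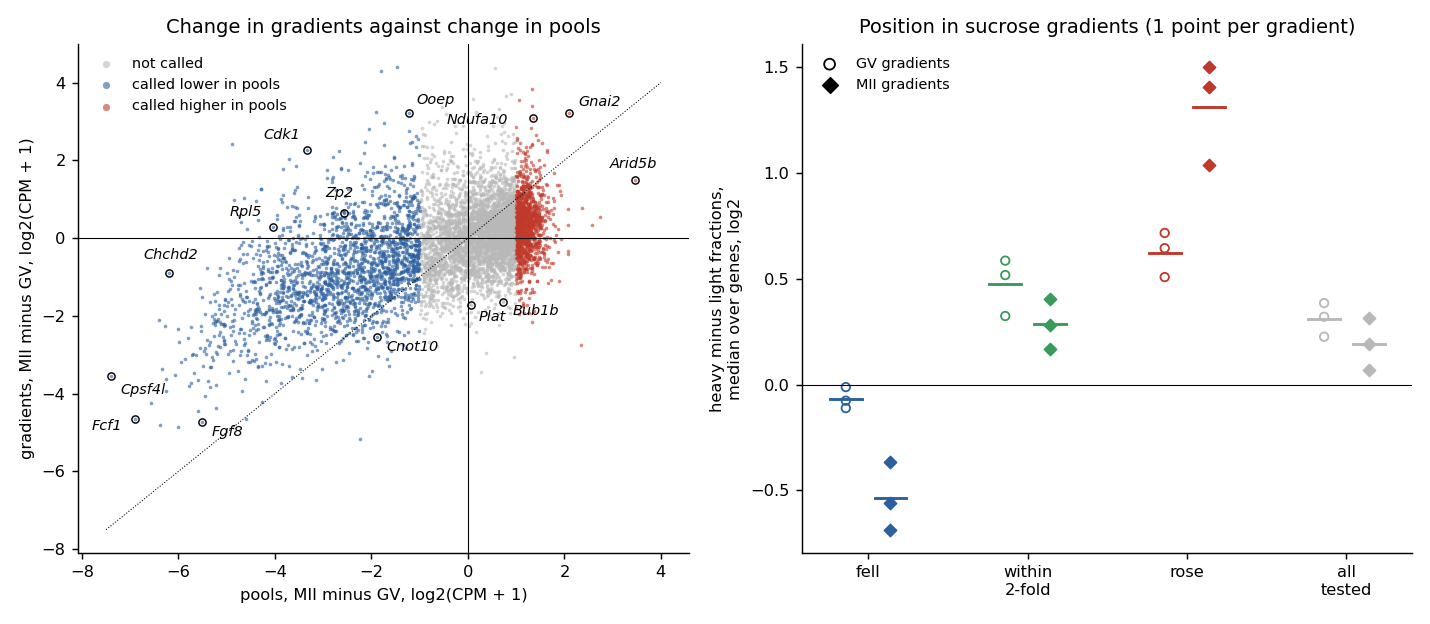
Left, change from GV to MII in the mean of the 10 gradient fractions (vertical axis, n = 3 gradients per stage) against the change in pools (horizontal axis, n = 4), both in log2 of CPM + 1, for genes with at least 10 CPM; blue and red points were called in pools and the dotted line marks equal change. Right, heavy minus light difference per gradient (log2, median over genes) for genes that fell, were retained or rose in pools, with open circles for GV, diamonds for MII gradients and a line at each mean. Blue points lie mostly above the dotted line, and the risen genes have the highest MII values (mean 1.31).

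Levels after fertilization were read in the zygote and 2-cell pools, which share the fit, its filter and its variance with the GV and MII pools but not the MII minus GV difference. Ribosomal protein transcripts summed to 2093 CPM in zygotes and 5693 CPM in 2-cell embryos, beside 1468 CPM in MII. Rps13 had 7.38 and 69.97 CPM there, and Cdk1 46.6 and 241 CPM, near its GV level by the 2-cell stage. The zona class went on down to 661 CPM in zygotes. Genes that fell from GV to MII made up 10.99% of the zygote total and 16.05% of the 2-cell total, beside 36.5% in GV and 6.61% in MII, values that follow from how they were chosen. Genes that rose made up 31.4% and 30.1% and retained genes 28.6% and 26.8%. Btg4 reached 14188 CPM and Orc6 1472 CPM in zygotes, whereas Mos (224 CPM), Plat (321 CPM), Astl (52.7 CPM) and Gdf9 (2302 CPM) were below their MII means of 1740, 1828, 519 and 7713 CPM.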

How the data were processed

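The authors deposited 1 table of CPM values per gene symbol for 272 libraries. Per the submitters' processing notes, the tools were Trim Galore 0.6.7, FastQC, HISAT2 2.2.1, featureCounts 2.0.1 and edgeR, with GRCm39; the annotation is not given in the sources used here. Columns deposited by the authors that summed above a CPM column's limit, because 76 groups of symbols repeat, were recorded as a signal; none is a GV or MII pool, and 1 symbol per group was kept (15771 of 15854). Values were whole multiples of 1 read (100% within 0.05 reads), which gave depths. The library kit marks no strand, per the labels' protocols, so antisense and overlapping genes cannot be separated.

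limma 3.58.1 (R 4.3.3; lmFit, eBayes with trend) was fitted to log2(CPM + 1) over 32 transcriptome libraries of 8 stages, for genes with at least 1 CPM in 4 libraries, with Benjamini-Hochberg adjustment. Fold changes of low genes are understated on this scale. Alternatives were edgeR 4.0.16 and DESeq2 1.42.0 on recovered reads, other scalings, pseudocounts and filters, each library left out, and transcript length and GC trends removed. On simulated data for this comparison (14642 genes) 81% of changes of 1.5 and 97% of changes of 2 were recovered and 0.242% of unchanged genes were called. Only 200 genes were changed there, with equal numbers of falls and rises, whereas 5045 were called in the data. The simulation held no shift of scale between GV and MII, so it does not measure calls that depend on the scaling.

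Genes were named by rule: the 10 largest rises and falls without overlap and with at least 10 CPM in the higher group, the extreme and most abundant members of each list, the 10 retained genes of highest GV CPM and members of 7 lists, of which the text gives a part. Dppa3, Gmnn and Slbp are list members. The comparison and the 46 lists were chosen with earlier results of these data known. Library pairs were compared before averaging, and none agreed within sampling noise. Counting error alone underlies the floor of 3 reads.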

Additional observations from a re-analysis of the deposited data

Results flagged for a closer look

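A sample was singled out when its gap to the nearest of the other 3 libraries of its stage was larger, as a share of the stage's range, than Dixon's 95% critical value for 4 samples. Of 342 groups of 4 libraries examined 18 met this, about the share that chance gives (1 in 20). Among GV libraries these were Gm8126 at 19.5 CPM in library A, H2az2 at 105 CPM and Spin1 at 5006 CPM in A, Ldhb at 9599 CPM and Fzr1 at 77.8 CPM in B, Nr6a1 at 37.3 CPM in C, and Nlrp5 at 1135 CPM in D, each the highest of 4. The summed level of glycolysis and citric acid cycle genes was also highest in GV library B (12157 CPM).

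Among MII libraries, A was the highest for Dcp1a (1028 CPM), Zar1 (1171 CPM), Setd4 (36.2 CPM) and the sum of nucleoporins and importins (8277 CPM), and the lowest for Obox5 (7967 CPM). Library C was the lowest for Cnot1 (46.4 CPM) and Tnfsf10 (13.7 CPM) and the highest for Tcerg1l (20.0 CPM). Library D was the lowest for Shmt1 (17.6 CPM) and the highest for the summed genome activation markers (12.3 CPM). Setd4, H2az2 and Fzr1 kept their calls without the library concerned.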

How the results depend on the processing

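The count of 5045 calls lay between 4999 and 5065 when 1 library was left out, and was 3362 with a pseudocount of 5. Rises (1334) numbered 2540 after TMM scaling, 3018 after median of ratios scaling, 3234 after quantile normalization, 2838 with edgeR, 3422 with DESeq2, 861 with a pseudocount of 5 and 2415 after removal of transcript length and GC trends, when falls (3711) numbered 2328. Rises were then 41.5% of calls with edgeR, 47.0% with DESeq2 and 50.9% after trend removal. Retained genes (6069) numbered 1718 with DESeq2, 3405 when the filter used the 8 libraries alone, 2213 with a pseudocount of 0.1 and 9397 with 5. With only the GV and MII libraries in the fit, which then sets the spread from them alone, 6751 genes were retained. MII minus GV differences in genes at 1 CPM or more lay between -1391.17 and -1192.5, and in the share of the 100 most abundant genes between 4.79 and 6.17 percentage points, with 1 library left out. The exact two-sided permutation p was then 0.0571, the smallest possible, and 0.0286 with all 8. With fractions 7 to 10 against 1 to 4, GV gradient medians were 0.77 for risen genes (0.86 at 10 CPM or more), 0.62 for retained and 0.41 for all tested genes at that level; without fraction 1 risen genes had 0.71 and 0.83. With the letter as a replicate block and only these 8 libraries in the fit, 5033 genes were called (1326 higher, 3707 lower); letters did not pair libraries, as correlations of same-letter deviations lay between -0.02 and 0.03. Trend removal, omission of fraction 1 and the comparison at 10 CPM or more were chosen after seeing the data. Of the genes followed by name 95 kept direction and side of the threshold under every alternative and 31 did not, and none reversed. A check of mitochondrially encoded transcripts was not run, since no such symbol was analysed here.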
